A study of Mus musculus with 10 samples.

Results

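Transcripts of 29 genes that carry pyruvate into mitochondria, run the TCA cycle and refill or drain its intermediates were measured in cultured fetal mouse testes. The genes were taken by symbol from a table of 24470 gene entries; all 29 were found, 1 of them, Pc, under its synonym Pcx (Entrez identifier 18563). Each of 5 C57BL/6 embryos at E12.5, the animals M1 to M5, gave 1 testis cultured for 48 h with 75 µM of a glycogen phosphorylase inhibitor (GPI), and 1 testis cultured as long with the DMSO vehicle. The mesonephros stayed attached during culture and was cut away before RNA extraction, so that each of the 10 libraries holds the RNA of all cell types of 1 testis at 1 dose and 1 time. Read pairs assigned to genes ran from 10203679 to 15635322 per library. The comparison of GPI with vehicle asks how transcripts for mitochondrial use of pyruvate respond when the breakdown of stored glycogen is blocked.

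Pyruvate made in the cytosol enters the mitochondrial matrix through a carrier of paired subunits, and the pyruvate dehydrogenase complex turns it into acetyl-CoA, which citrate synthase joins to oxaloacetate. Kinases switch that complex off by phosphorylation and phosphatases switch it on again. The cycle loses carbon whenever intermediates are drawn off for synthesis, and pyruvate carboxylase and glutamate dehydrogenase are enzymes that can put carbon back. In the testis, Sertoli cells are known for turning glucose into lactate and pyruvate, which germ cells take up as fuel.

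The testis label was checked against marker genes, as summed normalised counts (counts scaled by TMM to a common library size) in mice M1 to M5. The 11 Sertoli cell markers, Sox9 and Amh among them, summed to 11316, 13116, 11124, 12863 and 12731 with vehicle and 11937, 14235, 14120, 15847 and 15365 with GPI. Of these markers 8 were called higher. Amh (log2 fold change 0.08), Fgf9 (-0.33) and Wt1 (-0.14), the most abundant, were not called. The 9 fetal Leydig cell markers, led by Hsd3b1, summed to 2262, 4048, 5390, 3148 and 6883 with vehicle and 12299, 12928, 19097, 21864 and 16279 with GPI. All 8 of them that could be tested were called higher. Nr5a1 is in both lists and is counted as higher in each. Foxl2, a marker of pre-granulosa cells of the ovary, was low at 30.6 ± 16.4 normalised counts with vehicle (SD, n = 5).

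Other cell types moved with the treatment as well. The 12 germ cell markers summed to 2184, 3503, 2696, 3268 and 1816 with vehicle and 1093, 898, 936, 1051 and 1132 with GPI; 7 of the 9 tested were called lower, with a list median log2 fold change of -4.62. Kit, the most abundant, was not called (log2 fold change -0.16, SE 0.09, adjusted p = 0.243) and held a mean of 771 of the 1022 counts left with GPI, while Dazl, Dppa3, Sall4, Sycp1 and Mael were at 4.05% of vehicle or less. Pou5f1 and Mael were at 0 in 3 GPI libraries each, Nanos2 in 2, and Nanos3 and Sycp1 in 1. The 9 endothelial markers, all called lower and led by Cdh5, summed to 7830, 8132, 7529, 8652 and 7767 with vehicle and 884, 1044, 717, 577 and 759 with GPI. Macrophage markers (8, with 7 lower, led by Cd68) summed to 1023, 665, 800, 740 and 744 against 434, 380, 356, 208 and 246, and erythroid markers (7, with 6 lower, led by Hbb-y) to 1827, 2393, 4284, 3903 and 3367 against 1796, 948, 913, 1042 and 2372. Of the macrophage markers, C1qa was at 0 in 1 GPI library; elsewhere Insl3 (fetal Leydig) and Irx3 (pre-granulosa) were at 0 in 2 and Cdh16 (mesonephric) in 1. The interstitial progenitor list (7 genes, 1 higher and 3 lower, led by Pdgfra) reached 97.1% of its vehicle sum, the mesonephric and epithelial list (8, with 1 of 6 tested lower, led by Upk3b) 85.9% and the pre-granulosa list (5, with 1 of 4 tested lower, led by Wnt4) 68.9%. In these whole-testis libraries, fewer cells of a type and less RNA per cell cannot be told apart, and the part of these shifts in the results was not tested.

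The GPI library of mouse M1 stood apart from the other GPI libraries in 18 hypoxia target genes. Their sums in mice M1 to M5 were 20843, 19563, 15592, 15121 and 17558 with vehicle and 30264, 8976, 6210, 6879 and 7213 with GPI, so that M1 lay above its vehicle testis and the other mice below theirs. Of these genes 13 were called lower and 1, Pfkfb4, higher; Vegfa was the most abundant. Each count of called members is therefore also given without M1.

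**Figure D1:**
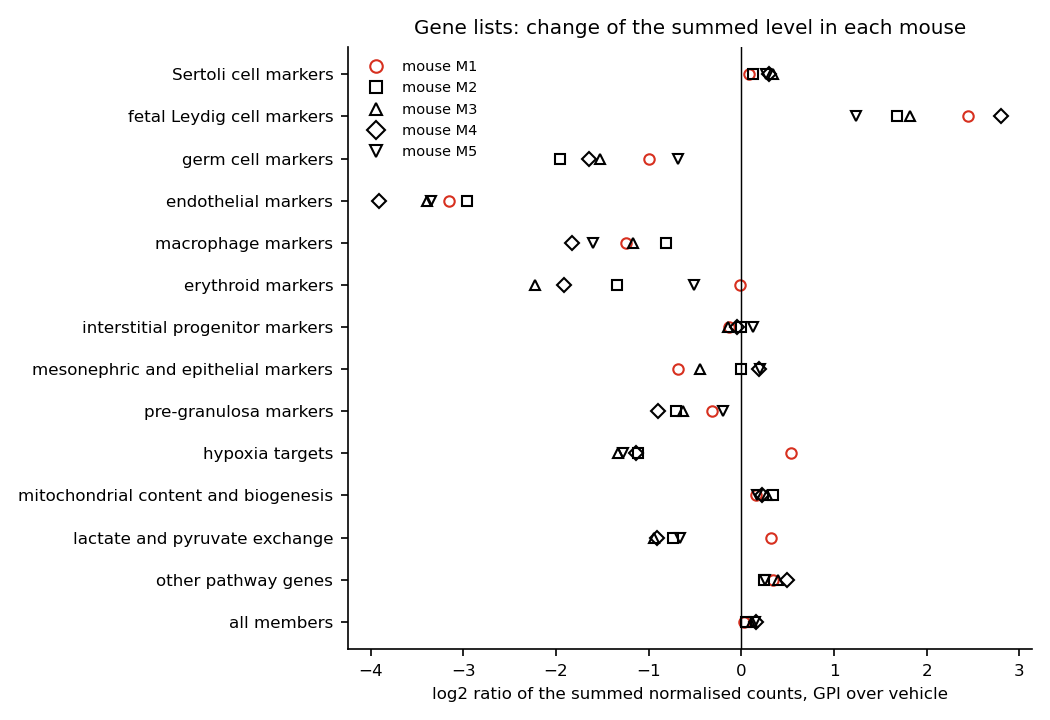
Log2 ratio of the summed normalised counts of each gene list, GPI over vehicle, in each of the 5 mice (symbols, mouse M1 in red). The endothelial sums fell in each mouse (from -3.91 to -2.96), the fetal Leydig cell sums rose in each, the hypoxia targets went up in M1 alone (0.54), and the 29 members together stayed between 0.03 and 0.16.

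With GPI, 9 of the 29 members were called higher and 1 lower at an FDR of 0.05 among 13941 tested genes (quasi-likelihood F test in edgeR, p adjusted by Benjamini-Hochberg), and 19 were not called. The background in the same test was 11.1% of genes called higher, 11.9% lower and 22.9% in either direction. Aco1, Idh3a, Suclg2, Pcx, Dld, Mdh1, Pdp1, Pdp2 and Pdhx were higher, and Glud1, one of the most abundant members, was lower. All 29 passed the filter on low counts, Mpc1 and Ogdhl with the fewest counts. The changes were small: the log2 fold change of Pcx alone was over 1, and for 14 members its size was under 0.25. The median log2 fold change of the members was 0.14, beside 0.02 for all tested genes, and 25 of the 29 fitted values were positive.

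Taken by mouse, the median log2 ratio of the members was 0.22 in M1, 0.11 in M2, 0.20 in M3, 0.24 in M4 and 0.09 in M5, and those of all tested genes were 0.01 or 0.02. A member lay higher with GPI in 21, 19, 20, 25 and 19 of 29 cases in mice M1 to M5. In 13 of the 29 the direction was the same in 5 of 5 mice, as it was for 30.5% of all tested genes. The GPI libraries lay wholly above the vehicle libraries for 6 members (background 7.07%) and wholly below for 2, Pdha1 and Glud1 (background 9.05%). Without M1, 7 members were called higher and 1 lower, Pdhx (adjusted p = 0.0682) and Pdp1 (adjusted p = 0.0752) no longer passing. Only 5 were called higher without M3 or without M4.

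**Figure D2:**
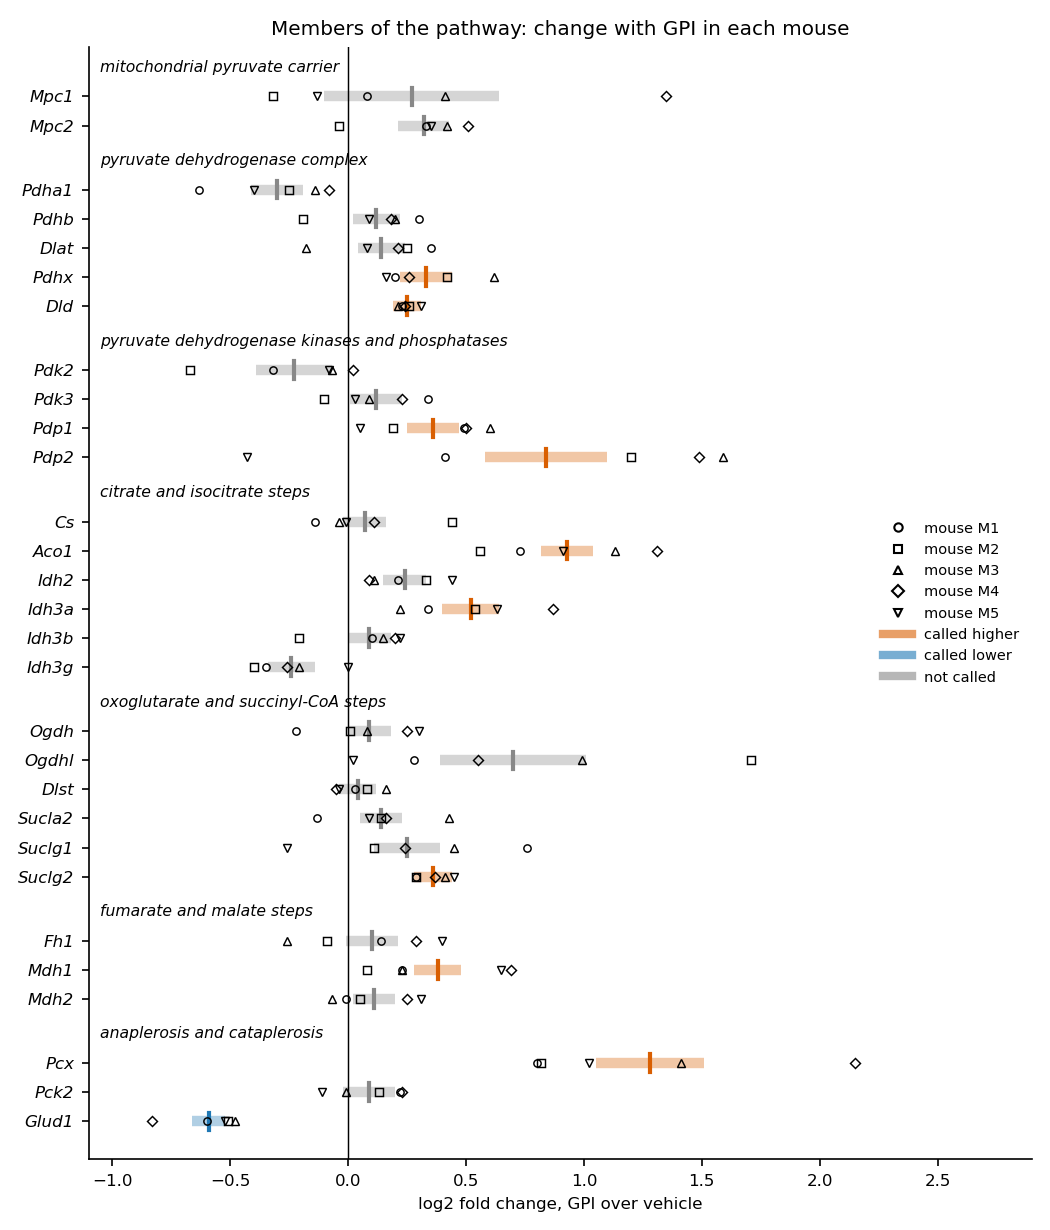
Log2 fold change of the 29 members, GPI over vehicle, by role. Symbols are the 5 mice, vertical ticks the fitted values and shaded bars 1 SE to each side, coloured where a gene was called; Pcx lies farthest to the right at 1.28 and Glud1 farthest to the left at -0.59.

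Neither subunit of the mitochondrial pyruvate carrier was called. Normalised counts of Mpc2, the subunit with the smaller p, were 359, 403, 298, 312 and 290.3 in the vehicle testes of M1 to M5 and 452, 392, 398, 446 and 370.5 in their GPI testes. The groups overlapped, since the vehicle testis of M2 lay above its GPI testis and above those of M3 and M5 as well. Means were 332 ± 47.7 with vehicle and 412 ± 35.6 with GPI (SD, n = 5), a log2 fold change of 0.32 (SE 0.11, adjusted p = 0.0505), and the gene passed in 1 of 12 alternative settings, without M2 (0.41, adjusted p = 0.0142). Its partner Mpc1 had 21.1 ± 9.84 with vehicle and 24.2 ± 4.05 with GPI (SD, n = 5), the fewest counts of all members, and a log2 fold change of 0.27 (SE 0.37, adjusted p = 0.664). The fitted value of Mpc1 was 0 without M4 and 0.44 without M2. Mpc1 shares 4296 nt of its gene span with 4930506C21Rik on the opposite strand (log2 fold change 1.04, SE 0.49, adjusted p = 0.158), and counting did not use strand.

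Of the pyruvate dehydrogenase complex, Dld and Pdhx were higher. Dld encodes the dihydrolipoyl dehydrogenase (E3) that this complex shares with the oxoglutarate dehydrogenase complex. Its normalised counts were 2304, 2274, 2527, 2498 and 2242 with vehicle and 2702, 2723, 2923, 2956 and 2788 with GPI in mice M1 to M5. Each GPI testis exceeded every vehicle testis, and the log2 ratios by mouse were close to each other (0.23, 0.26, 0.21, 0.24 and 0.31). The log2 fold change was 0.25 (SE 0.06, adjusted p = 0.0111), the smallest among the called members, and without M3 the gene no longer passed (0.24, adjusted p = 0.0576).

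Pdhx encodes the protein that holds E3 to the core of the complex. Its normalised counts were 286, 218, 239, 293 and 268 with vehicle and 328, 292, 368, 350.3 and 299.6 with GPI. The groups overlapped by a single pair of values, the GPI testis of M2 lying just under the vehicle testis of M4, and the direction was the same in 5 of 5 mice. The log2 fold change of 0.33 (SE 0.11, adjusted p = 0.0481) was at the edge of the threshold: 10 of 12 alternative settings ended the call, among them DESeq2 (adjusted p = 0.0762) and each left-out mouse (adjusted p from 0.0621 to 0.244).

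The catalytic E1 and E2 genes were not called. Pdha1, the E1 alpha subunit that carries the regulatory phosphorylation sites, had 379.7 ± 43.1 with vehicle and 306 ± 18.8 with GPI (SD, n = 5) and was lower in 5 of 5 mice with no overlap of the groups, yet missed the threshold at -0.30 (SE 0.11, adjusted p = 0.0657). It passed without the replicate block (-0.31, adjusted p = 0.0393) and with total counts in place of TMM (-0.35, adjusted p = 0.0337). The gene span of Pdha1 overlaps that of Map3k15 over 1133 nt on the opposite strand. Map3k15 itself fell by 0.99 on the log2 scale (SE 0.28, adjusted p = 0.0185). Whether exons overlap there, and how read pairs from the shared stretch were assigned, was not examined. Pdhb, the E1 beta subunit, had a log2 fold change of 0.12 (SE 0.10, adjusted p = 0.451) and Dlat, the E2 acetyltransferase, 0.14 (SE 0.10, adjusted p = 0.368).

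Both phosphatases that reactivate pyruvate dehydrogenase were higher, and neither of the kinases among the members was called. Normalised counts of Pdp1 were 339, 413, 352, 368 and 427 with vehicle and 476, 472, 532, 522 and 441 with GPI in mice M1 to M5. All GPI values lay above all vehicle values, although in M5 the difference was small (log2 ratio 0.05). The fit gave a log2 fold change of 0.36 (SE 0.11, adjusted p = 0.0245), and the call was lost without M1, M3 or M4 (adjusted p from 0.0752 to 0.146) and with total counts only (0.31, adjusted p = 0.0557).

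Pdp2 counts were 145, 69.2, 73.7, 78.7 and 193 with vehicle and 194, 161, 226, 224 and 143 with GPI. The vehicle values split, with M2, M3 and M4 at 69.2 to 78.7 and M1 and M5 at 145 and 193, and M5 went down with GPI while the other mice went up. The log2 fold change of 0.84 (SE 0.26, adjusted p = 0.0305) was larger than that of Pdp1 but rested on fewer counts; it was 1.18 without M5 (adjusted p = 0.00206) and not called without M2, M3 or M4 (adjusted p from 0.106 to 0.153), with limma-voom (adjusted p = 0.051) or without the replicate block (adjusted p = 0.0517). The kinase Pdk2 had 129.8 ± 28.8 with vehicle and 109 ± 7.7 with GPI (SD, n = 5) and a log2 fold change of -0.23 (SE 0.16, adjusted p = 0.359), and Pdk3 one of 0.12 (SE 0.11, adjusted p = 0.489).

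In the citrate and isocitrate steps the 2 called members were Aco1 and Idh3a. Aco1 encodes the cytosolic aconitase, which turns citrate into isocitrate outside mitochondria and, without its iron-sulphur cluster, acts as an iron regulatory protein. Normalised counts were 493, 509.5, 526, 497 and 585 with vehicle and 816, 751, 1151, 1234 and 1103 with GPI in mice M1 to M5. The vehicle testes lay close together, all GPI testes lay above them, and M3, M4 and M5 rose more than M1 and M2. Means were 522 ± 37.5 with vehicle and 1011 ± 214 with GPI (SD, n = 5), and the log2 fold change of 0.93 (SE 0.11, adjusted p = 2.87e-05) held in each of the 12 alternative settings, from 0.83 to 1.02.

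Idh3a encodes the catalytic alpha subunit of the NAD-dependent isocitrate dehydrogenase. Its counts were 246, 214, 249, 205 and 221 with vehicle and 311, 310.5, 290.0, 378 and 342 with GPI. The GPI values lay wholly above the vehicle values, with the widest gap in M4. Its log2 fold change was 0.52 (SE 0.12, adjusted p = 0.0064) and was called in all 12 alternative settings (0.43 to 0.58). The other subunits of the same enzyme were not called: Idh3b had a log2 fold change of 0.09 (SE 0.09, adjusted p = 0.535), and Idh3g one of -0.24 (SE 0.10, adjusted p = 0.0937), with lower counts under GPI in each mouse (in M5 only from 464 to 463). With total counts only, Idh3g passed as lower (-0.29, adjusted p = 0.0451). Idh3b and Nop56 overlap by 5 nt on opposite strands.

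Citrate synthase (Cs), which opens the cycle, had 1245 ± 156 with vehicle and 1305 ± 127 with GPI (SD, n = 5) and a log2 fold change of 0.07 (SE 0.09, adjusted p = 0.635). Its direction differed between mice, 2 of 5 being higher, and its fitted value turned to -0.02 without M2. Idh2, the NADP-dependent mitochondrial isocitrate dehydrogenase, was higher in 5 of 5 mice (0.21, 0.33, 0.11, 0.09 and 0.44 in M1 to M5) but not called at 0.24 (SE 0.09, adjusted p = 0.0799).

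Among the oxoglutarate and succinyl-CoA steps, Suclg2 was the member called. It encodes the beta subunit that makes succinyl-CoA ligase specific for GDP. Normalised counts were 709, 715, 756, 720.2 and 689.5 with vehicle and 868, 877, 1006, 931 and 940.3 with GPI in mice M1 to M5. Both groups were tight, with a coefficient of variation of 3.38% with vehicle and 6.00% with GPI, and the lowest GPI testis stood well above the highest vehicle testis. The log2 fold change of 0.36 (SE 0.08, adjusted p = 0.00362) was called in all 12 alternative settings (0.31 to 0.38). The ADP-specific partner Sucla2 had 0.14 (SE 0.09, adjusted p = 0.313), and the alpha subunit Suclg1, which pairs with either, 0.25 (SE 0.14, adjusted p = 0.249).

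Apart from the shared Dld subunit, no member of the oxoglutarate dehydrogenase complex was called. Ogdh had 994 ± 41.4 with vehicle and 1064 ± 164 with GPI (SD, n = 5) and a log2 fold change of 0.09 (SE 0.09, adjusted p = 0.549), and Dlst, its succinyltransferase, 0.04 (SE 0.08, adjusted p = 0.795), a value that turned to -0.01 without M3 and with total counts only. Ogdhl, a related gene with the lowest level of all members per 1000 nt of transcript, had normalised counts of 30.6 ± 12.47 with vehicle and 47.8 ± 10.02 with GPI (SD, n = 5). It was higher in 5 of 5 mice with log2 ratios of 0.28, 1.71, 0.99, 0.55 and 0.02 in M1 to M5 and did not pass at 0.70 (SE 0.31, adjusted p = 0.127).

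Of the fumarate and malate steps, Mdh1 was called. It encodes the cytosolic malate dehydrogenase of the malate-aspartate shuttle, which carries reducing equivalents into mitochondria. Its normalised counts were 801, 972, 817, 923 and 850.2 with vehicle and 937, 1025, 959, 1487 and 1335 with GPI in mice M1 to M5. M4 and M5 reached far above all vehicle testes, while the GPI values of M1 and M3 lay under the vehicle value of M2, so the groups overlapped. Mdh1 rose by a log2 fold change of 0.38 (SE 0.10, adjusted p = 0.0143), and the call was lost without M4 (0.30, adjusted p = 0.0851) or M5 (0.31, adjusted p = 0.0693). The mitochondrial enzyme Mdh2 had a log2 fold change of 0.11 (SE 0.09, adjusted p = 0.443) and fumarase, Fh1, one of 0.10 (SE 0.11, adjusted p = 0.591).

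The members that refill the cycle held the largest rise of all members and the only member called lower. Pcx, pyruvate carboxylase, makes oxaloacetate from pyruvate. Its normalised counts were 37.6, 41.8, 42.4, 36.9 and 60.2 with vehicle and 67.2, 75.4, 116, 170.4 and 124 with GPI in mice M1 to M5. No GPI testis fell into the vehicle range, and M4 rose most. Means were 43.8 ± 9.49 with vehicle and 111 ± 41.6 with GPI (SD, n = 5), and the log2 fold change was 1.28 (SE 0.23, adjusted p = 0.00114), a 2.43-fold higher level, called in all 12 alternative settings (1.05 to 1.39). The gene spans chr19:4510472-4621752 in mm10 and holds Lrfn4 on the opposite strand (3884 nt), whose log2 fold change was 0.24 (SE 0.28, adjusted p = 0.611). By mouse, the log2 ratios of Pcx were 0.80, 0.82, 1.41, 2.15 and 1.02, and those of the summed fetal Leydig cell markers 2.44, 1.68, 1.82, 2.80 and 1.24; the part of these cells in the rise was not tested.

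Glud1, glutamate dehydrogenase, links glutamate and oxoglutarate. Its normalised counts were 3253, 3303, 3381, 3408 and 2833 with vehicle and 2141, 2315, 2416, 1918 and 1970 with GPI. All GPI testes lay below all vehicle testes, and M4 fell most. Means were 3236 ± 234 with vehicle and 2152 ± 215 with GPI (SD, n = 5), with a log2 fold change of -0.59 (SE 0.07, adjusted p = 4.43e-05), so that the level with GPI was 0.664 of that with vehicle; the call held in all 12 alternative settings (-0.64 to -0.53). Pck2, the mitochondrial PEP carboxykinase, which drains oxaloacetate, had 310.2 ± 52.9 with vehicle and 329.5 ± 47.5 with GPI (SD, n = 5) and 0.09 (SE 0.11, adjusted p = 0.602).

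**Figure D3:**
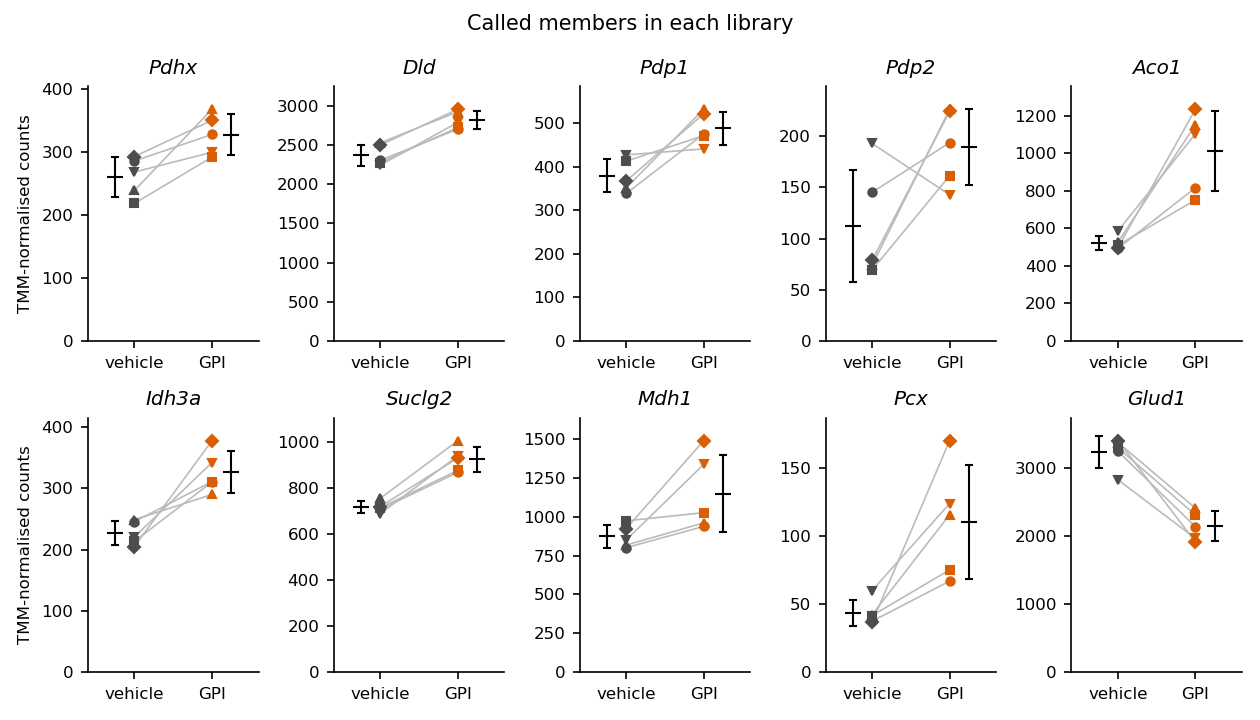
TMM-normalised counts of the 10 called members in the vehicle (grey) and GPI (orange) testis of each mouse; lines join testes of the same mouse, and bars beside them are the mean and SD of 5 libraries. Glud1 is the called member that fell, from 3236 to 2152, and Pdp2 the one where a mouse (M5) went against the others.

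The bases before the transcription start are shown for Suclg2, Pcx and Glud1, members called under every setting whose windows lie almost outside annotated untranslated exons. They come from the RefSeq promoter table (GRCm38.p6, the mm10 build), which matched 27 of the 29 members in 35 windows, with no entry for Idh3a and Pdp1. Capitals mark matches, on either strand, to the motifs named further down. Suclg2 (minus strand, chr6:95718847-95719096) had a GC content of 64.4% and 8 CpG in its 250 bases and no motif. Pcx has 2 annotated starts, both on the plus strand: the window of the first (chr19:4510222-4510471, 60.8% GC, 16 CpG) holds an E-box, CACGTG, and a further ACGTG, and that of the second (chr19:4594069-4594318, 58.0% GC, 4 CpG), inside the gene, holds none. The 250-base window of Glud1 (plus strand, chr14:34310477-34310726) was far richer in GC at 82.0%, with 46 CpG and 1 CCGGAAG match on the minus strand. It is printed as chr14:34310494-34310726, without 17 bases that belong to an exon of the neighbouring gene. The medians of all 32851 windows were 52.4% GC and 6 CpG, and those of the member windows 61.6% and 17.
Suclg2: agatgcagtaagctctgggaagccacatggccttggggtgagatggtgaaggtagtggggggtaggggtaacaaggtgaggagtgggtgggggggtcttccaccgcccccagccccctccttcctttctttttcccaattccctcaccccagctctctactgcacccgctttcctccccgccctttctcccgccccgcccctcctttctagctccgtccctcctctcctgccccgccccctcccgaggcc
Pcx, first start: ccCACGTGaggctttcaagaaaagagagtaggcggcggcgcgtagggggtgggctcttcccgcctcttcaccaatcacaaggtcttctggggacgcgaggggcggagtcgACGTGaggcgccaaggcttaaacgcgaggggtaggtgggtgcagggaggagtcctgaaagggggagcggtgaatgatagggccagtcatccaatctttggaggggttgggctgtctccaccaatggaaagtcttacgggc
Pcx, second start: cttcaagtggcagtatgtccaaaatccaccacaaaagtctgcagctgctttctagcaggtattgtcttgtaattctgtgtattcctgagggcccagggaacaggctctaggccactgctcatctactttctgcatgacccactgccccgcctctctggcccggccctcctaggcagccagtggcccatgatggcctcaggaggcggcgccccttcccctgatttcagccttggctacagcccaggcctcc
Glud1: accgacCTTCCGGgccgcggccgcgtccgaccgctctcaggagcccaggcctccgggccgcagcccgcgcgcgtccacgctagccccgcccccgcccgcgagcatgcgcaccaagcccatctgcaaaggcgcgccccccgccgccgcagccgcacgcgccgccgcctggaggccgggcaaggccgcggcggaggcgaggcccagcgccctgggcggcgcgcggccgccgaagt

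Motifs were searched on both strands of the full windows of 300 bases, 250 before and 50 after the start; the shares in brackets are those of all 32851 windows and of the 13995 windows of tested genes, in that order. TCAAGGTCA (the ESRR element) was in 0 of 35 member windows (0.423% and 0.272%), and CAAGGTCA (NR5A1), which lies inside it, in 1, of Ogdh (1.56% and 1.08%). CGCATGCG (NRF1) was in 2, both of Ogdh, or 5.71% of member windows (1.87% and 3.57%). CCGGAAG (ETS or GABP) was in 5, those of Dlst, Glud1, Idh3b, Idh3g and Mpc1, or 14.3%, above the share of all windows and below that of tested genes (8.86% and 16.2%). TGACGTCA (CRE) was in 4 of Mdh2 and Ogdh, or 11.4% (1.79% and 2.94%). CACGTG (E-box) was in 7 of Ogdh, Ogdhl, Pcx, Pdk2 and Pdp2, or 20% (7.15% and 9.70%), and ACGTG (the HIF core, which every E-box also holds) in 14 of Idh3g, Mdh1, Ogdh, Ogdhl, Pcx, Pdhb, Pdk2, Pdk3 and Pdp2, or 40% (19.6% and 24.8%). Several windows of 1 gene overlap, so these counts are not independent, and a match describes letters only.

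Levels of different genes were compared as normalised counts per 1000 nt of the longest annotated transcript. With vehicle, Glud1 (954 ± 68.9) and Dld (931 ± 52.3) led and did not differ beyond their SD (n = 5). Cs (415 ± 51.9), Mdh1 (411 ± 34.4) and Mdh2 (385 ± 13.3) followed, also within their spread. At the other end stood Mpc1 (21.9 ± 10.2), Pdp2 (19.7 ± 9.63), Pcx (10.6 ± 2.29) and Ogdhl (8.21 ± 3.35). With GPI, Dld came first at 1110 ± 45.5 and Glud1 second at 635 ± 63.3, while Aco1 moved from place 16 to place 11 of 29. Within the isocitrate dehydrogenase, Idh3a (88 ± 7.58) was below Idh3b (322 ± 31.7) and Idh3g (223 ± 18.3) with vehicle, at 126, 342 and 189 with GPI. Pcx remained at the low end with GPI too, at 26.7 ± 10.

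**Figure D4:**
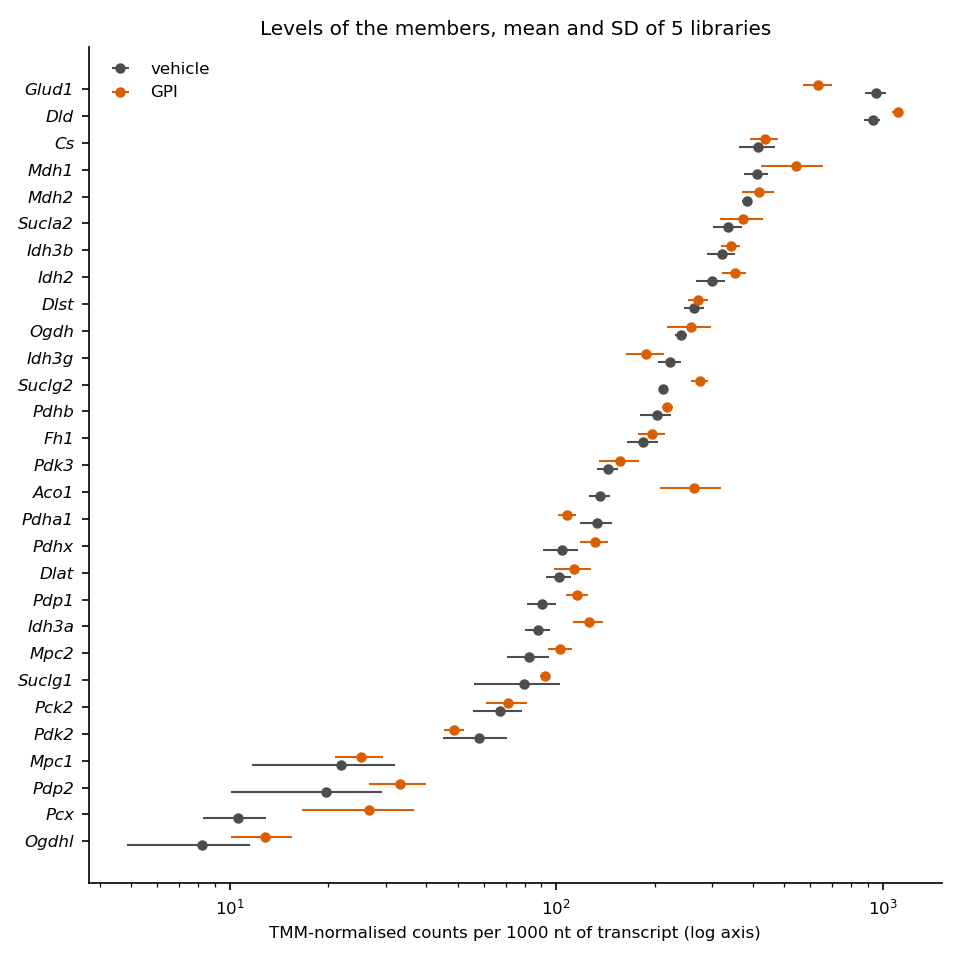
Level of each member with vehicle (grey) and GPI (orange) as TMM-normalised counts per 1000 nt of transcript on a log axis, mean and SD of 5 libraries, in the order of the vehicle level. Levels span from 8.21 for Ogdhl to 954 for Glud1 with vehicle.

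Since a gene past the threshold need not differ from one that missed it, 10 pairs of partner or related genes were compared within each mouse by the difference of their log2 ratios, with an exact two-sided sign-flip permutation test. With 5 mice the smallest p this test can give is 0.0625, so none could pass 0.05 and the differences are a description. That smallest value was reached by 6 pairs (p = 0.104 after Benjamini-Hochberg adjustment over the 10 pairs in this exact test). Idh3a exceeded Idh3g by 0.76 ± 0.27 and Idh3b by 0.43 ± 0.29, and Idh3b exceeded Idh3g by 0.34 ± 0.12 (mean difference ± SD, n = 5), each in 5 of 5 mice. Mdh1 exceeded Mdh2 by 0.27 ± 0.15 in 5 of 5 mice. Pdk2 minus Pdk3 was -0.34 ± 0.25 and Pdha1 minus Pdhb -0.42 ± 0.32, both below 0 in each mouse.

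The other 4 pairs went both ways. Pdp1 minus Pdp2 was -0.49 ± 0.71 (n = 5, exact p = 0.25), with M1 and M5 above 0. Ogdh minus Ogdhl was -0.63 ± 0.74 (n = 5, exact p = 0.125) and Sucla2 minus Suclg2 -0.22 ± 0.18 (n = 5, exact p = 0.125). Mpc1 minus Mpc2 was -0.04 ± 0.51 (n = 5, exact p = 0.9375).

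**Figure D5:**
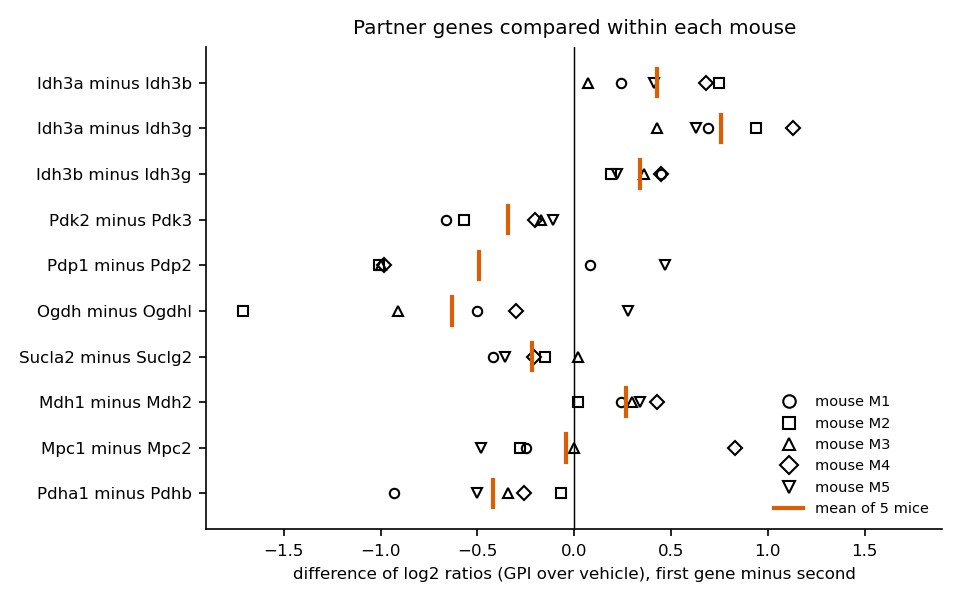
Difference between the log2 ratios (GPI over vehicle) of partner genes, first gene minus second, in each of the 5 mice (symbols), with the mean (orange tick). Values of the Idh3 subunits and of Mdh1 minus Mdh2 lie to the right of 0 in each mouse, from 0.02 to 1.13, and those of Pdp1 minus Pdp2 on both sides.

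Around the members, 39 other genes of these pathways were followed, 37 of which were tested (the others did not pass the filter on low counts). There were 9 higher and 4 lower, with a median log2 fold change of 0.17. The background over all tested genes was 11.1% called higher and 11.9% called lower. Those higher were largely enzymes that handle citrate, malate and amino groups beside the cycle. Gpt2, the mitochondrial alanine transaminase (log2 fold change 1.17, SE 0.14), the cytosolic malic enzyme Me1 (1.07, SE 0.10), the aspartate transaminases Got1 (0.99, SE 0.11) and Got2 (0.24, SE 0.08), cytosolic Idh1 (0.92, SE 0.08) and ATP citrate lyase Acly (0.60, SE 0.11) were among them. So were the aspartate-glutamate carrier Slc25a13 (0.73, SE 0.16), Pcca (0.84, SE 0.22) and Mmut (0.36, SE 0.11) of propionate use. The succinate dehydrogenase subunits Sdha (0.01, SE 0.07), Sdhb, Sdhc and Sdhd were not called.

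Among those lower were the lipoyl transferase Lipt2 (-0.68, SE 0.21) and the pyruvate dehydrogenase kinases Pdk1 (-1.17, SE 0.26) and Pdk4 (-0.83, SE 0.27). Normalised counts of Pdk1, a hypoxia target that inactivates the complex Pdp1 and Pdp2 reactivate, were 1073, 826, 731, 752 and 968 with vehicle and 1542, 337, 209, 242 and 304 with GPI in mice M1 to M5. It fell in 4 mice and rose in M1, as the hypoxia list did; Pdk4 was likewise higher in M1 (0.16) and lower in the others.

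Of 8 genes for lactate and pyruvate exchange, 7 were tested. For this list and the next, the background over all tested genes was again 11.1% called higher and 11.9% called lower. The lactate dehydrogenase Ldhb (0.49, SE 0.08) and the monocarboxylate carriers Slc16a1 (0.65, SE 0.11) and Slc16a7 (1.34, SE 0.29) were called higher, and Ldha (-1.11, SE 0.22) and Pkm (-0.89, SE 0.19) lower, both of these with a rise in M1. Of 23 genes of mitochondrial content and biogenesis, 5 were higher and 0 lower (median log2 fold change 0.19), namely Vdac3 (0.59, SE 0.08), Ppargc1a (0.40, SE 0.11) and the chaperones Hspd1 (0.45, SE 0.08; the most abundant), Hspa9 (0.52, SE 0.09) and Hspe1 (0.51, SE 0.08). Nrf1 (-0.27, SE 0.11) and Gabpa (-0.20, SE 0.08) were not called. The summed counts of the list reached 118% of vehicle, and 104% without the 3 chaperones, a sum taken after seeing the data. Those of the 29 members reached 107%, a sum that includes Glud1, the most abundant member, which fell. By role, the anaplerosis and cataplerosis group, which holds Glud1, reached 72.2% of its vehicle sum. The other role groups reached 112% to 123%.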

How the data were processed

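RNA of 10 testes was sequenced in unstranded libraries made with the Ovation RNA-Seq System V2. Mapping to mm10 was done by the authors in STAR 2.5, who counted read pairs per gene with featureCounts (Subread 1.5.0-p1) on RefSeq models without regard to strand; the deposited values are raw counts. Reads shared with near-identical copies of a gene were not examined. Genes were kept by filterByExpr (minimum count 10, minimum total 15) and fitted in edgeR 4.0.16 (quasi-likelihood, TMM, mouse and treatment as terms), with Benjamini-Hochberg adjustment; the SE is the absolute log2 fold change over the square root of F. Ratios by mouse used a prior count of 2. Lengths came from GENCODE M21 (all 29 members). The procedure was tested on simulated data, where the share of false calls came out above the nominal FDR, so calls close to the threshold are less sure than the adjusted p states.

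The 2 testes of a mouse are paired by the animal label. Deviations from the group mean correlated at 0.06 on average within a mouse (-0.04 to 0.155) and -0.015 between mice (exact one-sided permutation p = 0.05, 120 pairings). Libraries were checked for duplicates and none was found: between libraries of a group, chi-square over its degrees of freedom was 6.42 to 27.8. Values in every library are given for called members and, in a role with none, for the member with the smallest p. Members and lists were chosen with earlier results of these data known. Alternatives were DESeq2 1.42.0, limma-voom (limma 3.58.1), no replicate block, other size factors, other count filters, other prior counts and leaving out each mouse. Libraries were amplified, so the counts do not stand for separate molecules and errors rest on the differences among mice. Protein sequences were not used here, and some genes of the lists are not reported here.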

Additional observations from a re-analysis of the deposited data

Results flagged for a closer look

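In 58 groups of 5 libraries, each member under each treatment, 2 held a library far from the other 4; chance flags about 1 in 20 groups, which is more than were found. Both were the vehicle testis of mouse M5: Pcx stood at 60.19 normalised counts where the other vehicle testes had 36.9 to 42.4, and Glud1 at 2833 where they had 3253 to 3408. Each of these values lay on the side of the GPI group without reaching it. Without M5, the log2 fold change was 1.35 for Pcx and -0.61 for Glud1, both called.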

How the results depend on the processing

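The fits of the members (Ogdhl under 11), their median and the counts of called members, other pathway genes and all genes were recomputed under 12 alternatives, and the partner differences under 7, other prior counts and each mouse left out, where Mpc1 minus Mpc2 (-0.04) changed sign (-0.25 to 0.07 with a mouse left out) and no other pair did. The other values were computed 1 way only. Of the 10 called members, Aco1, Idh3a, Suclg2, Pcx and Glud1 were called under all 12, and Pdhx, Dld, Pdp1, Pdp2 and Mdh1 lost the call under at least 1. Of 347 recomputed member values, 318 kept direction and side of the threshold, 22 lost a call and 4 gained one (Mpc2, Pdha1 under 2 settings, Idh3g). Mpc1 without M4, at 0 after rounding, was counted among the 318. Direction turned in 3, all of members not called: Dlst was -0.01 with total counts only and ranged from -0.01 to 0.06 when a mouse was left out, and Cs ranged from -0.02 to 0.11; the cause was not tested. The number of members called higher was 9, and 5 to 8 when a mouse was left out, where fewer samples enter the fit. The number called lower was 1, but 2 without the replicate block (pairing by mouse dropped) and 3 with total counts only, which also left 7 higher, so that 70% of called members were higher in place of 90%. Other pathway genes called lower were 4, but 2 without the replicate block and 2 to 3 with a mouse left out. The block changed the calls of Pdp2 and Pdha1 and of no other member. All genes called numbered 3198, and 2311 to 3472 under the alternatives. Counts under 60 per library limit what can be seen for Mpc1 and Ogdhl, and Ogdhl has no value where each library had to hold 10 counts or more.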
